A study of Mus musculus with 12 samples.

Results

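Saa3, Marco and 4 further scavenger receptor genes, Msr1, Cd36, Mrc1 and Cd163, were followed across all 4 groups of mouse bone marrow cells carrying mutant SETBP1, mutant NRAS, both or neither. The genes were taken by symbol from the deposited count table, where they are 6 of 19910 listed genes. Saa3 and Marco were chosen because their counts stood out between these groups, so the levels of Saa3 are given as a description with no test, and Marco is tested only where it was not used for that choice. The 4 other genes were chosen by family, with earlier results of these data known.

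The RNA came from bone marrow of C57BL/6J mice, isolated from females aged 6 to 10 weeks and transduced with retroviral supernatants collected at 48 and 72 h from a packaging cell line. Every group received a pair of retroviral vectors, and 3 libraries were made of each. The empty group carried 2 vectors without insert, the SETBP1 group carried SETBP1 (D868N) with an empty vector, the NRAS group carried NRAS (G12D) with an empty vector, and the last group, called both here, carried SETBP1 (D868N) with NRAS (G12D). The labels call the material murine leukemia cells, also for the empty group, and do not say whether the replicates of a group came from separate animals or separate transductions. The p-values therefore measure only the spread between these libraries, which may be technical. In bulk RNA, fewer cells of a type and less RNA per cell cannot be told apart.

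Scavenger receptors are surface proteins with which macrophages bind modified lipoproteins, bacteria, dying cells and other polyanionic or altered ligands. Marco and Msr1 are the class A receptors of macrophages, trimeric proteins with a collagen-like stalk that take up bacteria, particles and modified low-density lipoprotein. Cd36 is a class B receptor that binds oxidised lipoprotein and carries long-chain fatty acids into the cell. Mrc1 is the mannose receptor, which takes up glycoproteins and is widely used as a marker of alternatively activated macrophages, and Cd163 takes up complexes of haemoglobin with haptoglobin. Saa3 is an acute-phase serum amyloid A protein that, unlike the liver-derived forms, is made mainly outside the liver, macrophages included, and is strongly induced by interleukin 1, tumour necrosis factor and bacterial lipopolysaccharide.

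The libraries held between 7085894 and 8864919 counts, with 11835 to 12800 genes detected. Nras itself was counted at 82 to 93 CPM, counts scaled to the library total, in the empty and SETBP1 groups and at 1420 to 1710 CPM in the NRAS and both groups. Setbp1 reads were few, 0 in all empty and NRAS libraries, 5 to 7 in the SETBP1 libraries and 11 to 17 in the libraries with both. SETBP1 replicate 3 stood apart from its group, with correlations of 0.946 to 0.953 to the other SETBP1 libraries against 0.984 to 0.991 within the rest of the design. The highest total, 8864919 counts, and the fewest genes detected, 11835, were both those of this library. Ratios of Saa3, Marco, Msr1 and Cd36 in SETBP1 against empty are given with and without it. Values of the gene lists and marker sums include it. Levels below are CPM after TMM normalisation, which corrects library totals for the makeup of each library, and fold changes are log2 values from a negative binomial model over all 12 libraries with standard errors (SE). A difference is called past the threshold when the p-value of edgeR's quasi-likelihood test, adjusted by the Benjamini-Hochberg method over the 10993 genes tested, was under 0.05. All 6 genes passed the filter on low counts, Marco in 6 libraries and Cd163 in 5, which lay in 3 groups each, and the other 4 genes in all 12.

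Saa3 differed widely between the groups. The 3 empty libraries held 21.8, 24.5 and 19.8 CPM and the SETBP1 libraries 170, 184 and 470 CPM. The NRAS libraries held 5.68, 7.04 and 5.83 CPM and the libraries with both 22.2, 14.3 and 27.7 CPM. Every SETBP1 library lay above every other library, every NRAS library lay below every other library, and the empty and both groups overlapped.

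The mean level of Saa3 was 22.1 ± 2.35 CPM (SD, n = 3) in the empty group and 275 ± 169 CPM (SD, n = 3) in the SETBP1 group, a ratio of 12.5. SETBP1 replicate 3 held 2.65 times the mean of the other SETBP1 libraries. Without it the SETBP1 mean was 177 ± 9.78 CPM (SD, n = 2) and the ratio to the empty group 8.04. The NRAS mean of 6.18 ± 0.742 CPM (SD, n = 3) was lower than the empty mean by a factor of 3.57, and the mean with both was 21.4 ± 6.73 CPM (SD, n = 3).

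On the fitted log2 scale, Saa3 was higher with mutant SETBP1 both without and with mutant NRAS, by 3.64 (SE 0.352) against empty and by 1.79 (SE 0.422) against NRAS alone. With mutant NRAS it was lower than empty by 1.83 (log2 fold change -1.83, SE 0.418), and with both mutants it was lower than with SETBP1 alone (log2 fold change -3.68, SE 0.355). Without SETBP1 replicate 3 the log2 fold change was 3.00 in SETBP1 against empty, -3.05 in both against SETBP1 and -4.84, in place of -5.47, in NRAS against SETBP1. The both and empty groups were within their spread of one another, at a log2 fold change of -0.04 (SE 0.362). In order of their Saa3 level the groups were NRAS, then both and empty, which did not differ beyond their spread, then SETBP1. The change with SETBP1 was smaller on the NRAS background by 1.85 (log2 difference -1.85, SE 0.553), and by 1.22 (-1.22) without SETBP1 replicate 3.

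Saa3 lies on chr7:46711998-46715700 on the minus strand (GRCm38, GENCODE vM21), among other serum amyloid A genes with similar sequence. Of the 506 stretches of 50 bases in its main transcript, 9 (1.78%) also occur in Saa1. Saa1 and Saa2, the acute-phase forms of the liver, had 0 counts in every library, and no library had more than 3 counts of Saa4. Counts assigned to these relatives were thus at or near 0 in all 4 groups.

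**Figure D1:**
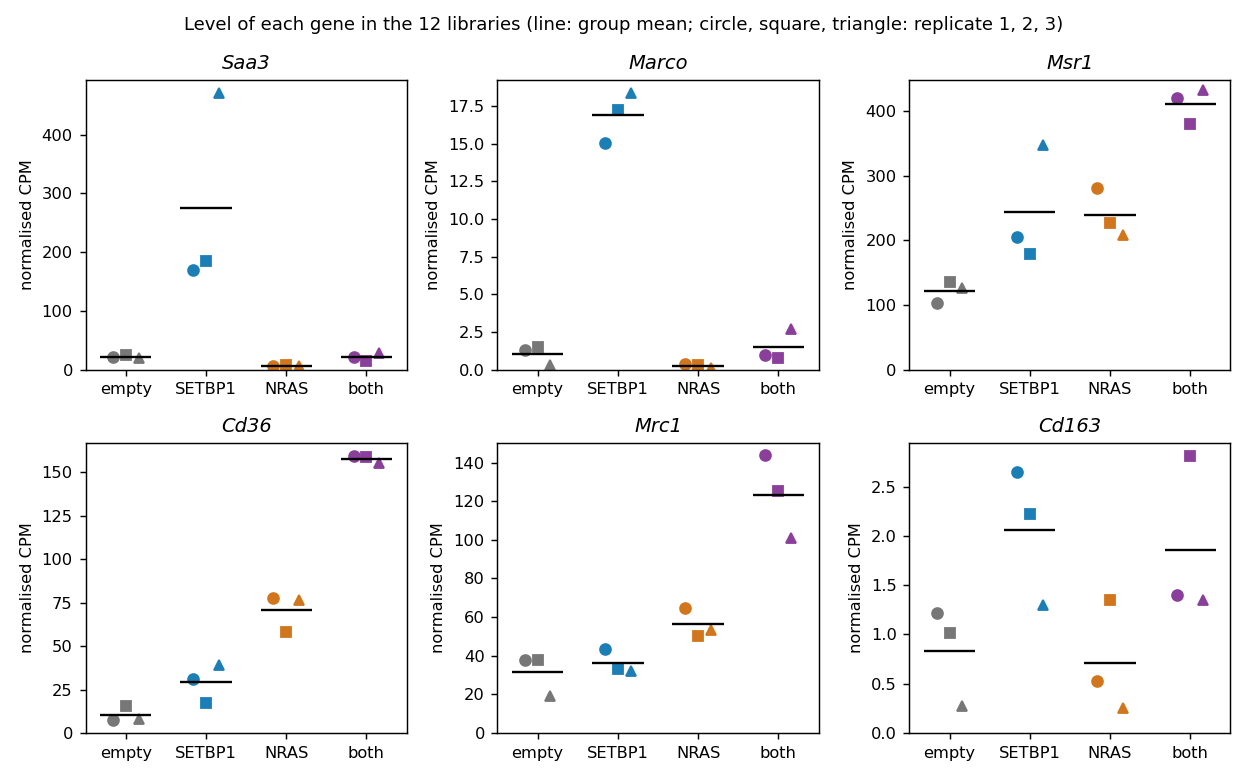
Level of each of the 6 genes in every library in normalised CPM (vertical axis, linear, from 0), by group (horizontal axis), with a symbol per library (circle, square and triangle for replicates 1, 2 and 3) and a line at the group mean. Saa3 and Marco peaked in the SETBP1 group, with Saa3 at 470 CPM in replicate 3, whereas Msr1, Cd36 and Mrc1 had their highest means in the group with both mutants (411, 158 and 123 CPM).

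Marco had its highest and lowest group means where Saa3 had them. The empty libraries held 1.33, 1.52 and 0.270 CPM (12, 12 and 2 counts), the SETBP1 libraries 15.1, 17.2 and 18.3 CPM (125, 132 and 155 counts). The NRAS libraries held 0.396, 0.271 and 0.127 CPM (3, 2 and 1 counts) and the libraries with both 0.979, 0.768 and 2.69 CPM (7, 6 and 20 counts). All 3 SETBP1 libraries lay far above all 9 others, while the empty group overlapped with both other groups.

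The mean of Marco was 1.04 ± 0.675 CPM (SD, n = 3) in the empty group and 16.9 ± 1.67 CPM (SD, n = 3) in the SETBP1 group. That ratio was 16.2, and 15.5 without SETBP1 replicate 3. Against the group with both, the SETBP1 group held 11.5 times as much Marco by counts, and against NRAS alone 64.3 times as much. The NRAS group rested on 6 counts in all, so the second ratio is imprecise. Both ratios are descriptions, since Marco was chosen for its level in the SETBP1 group.

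Mutant SETBP1 on the NRAS background was the contrast in which Marco was tested. The ratio of the both group to the NRAS group was 5.61 from 33 against 6 counts (95% interval 2.32 to 16.4, counting error only), and the groups did not overlap. The log2 fold change of 2.42 (SE 0.712) did not pass edgeR's quasi-likelihood test (adjusted p = 0.123, Benjamini-Hochberg). With DESeq2 the adjusted p was 0.0306, and over all alternatives it lay between 0.0306 and 0.468.

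Marco lies on chr1:120474538-120505024 on the minus strand, and no stretch of 50 bases in its transcript occurs in another gene. Across the 12 libraries its log2 level correlated with that of Saa3 at r = 0.958, while each of these genes correlated with Cd36 and Mrc1 at -0.346 to -0.177. These values are descriptions: both genes were chosen for their level in the SETBP1 group, and the libraries share their groups.

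The promoters of Saa3 and Marco are shown because these genes had their highest and lowest levels in the same groups, and those of Cd36 and Mrc1 because their highest level lay in another group. Each run is the RefSeq sequence (GRCm38.p6) from 250 to 31 bases before the annotated start, 5′ to 3′ on the strand of the gene. RefSeq promoters matched 5 of the 6 genes, all except Msr1. Capitals mark matches, on either strand, to TTGCNNAA, a motif of C/EBP factors, or to GAGGAA, a motif of the myeloid factor PU.1.
Saa3, chr7:46715707-46715926, minus strand: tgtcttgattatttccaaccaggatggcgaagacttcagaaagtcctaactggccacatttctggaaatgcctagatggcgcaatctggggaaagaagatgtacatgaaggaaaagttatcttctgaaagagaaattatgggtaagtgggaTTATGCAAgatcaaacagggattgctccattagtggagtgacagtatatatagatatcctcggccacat
Marco, chr1:120505055-120505274, minus strand: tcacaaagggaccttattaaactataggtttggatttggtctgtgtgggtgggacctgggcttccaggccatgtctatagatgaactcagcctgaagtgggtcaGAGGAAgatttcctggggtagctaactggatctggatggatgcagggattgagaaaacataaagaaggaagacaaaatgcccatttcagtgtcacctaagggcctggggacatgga
Cd36, chr5:17835927-17836146, minus strand: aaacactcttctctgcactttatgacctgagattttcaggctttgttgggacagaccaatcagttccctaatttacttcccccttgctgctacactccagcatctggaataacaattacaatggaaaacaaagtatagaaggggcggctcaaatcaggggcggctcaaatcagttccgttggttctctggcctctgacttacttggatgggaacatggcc
Mrc1, chr2:14229164-14229383, plus strand: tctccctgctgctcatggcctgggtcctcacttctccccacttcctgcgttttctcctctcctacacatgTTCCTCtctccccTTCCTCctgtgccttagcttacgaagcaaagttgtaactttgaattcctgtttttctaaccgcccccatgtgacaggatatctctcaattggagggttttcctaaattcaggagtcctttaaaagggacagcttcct

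In these windows the Saa3 promoter held 1 match to the C/EBP motif, 99 bases before the start, and 8.78% of 32851 promoters of the same length held 1 or more. Marco held the PU.1 motif 146 bases before its start and Mrc1 held it at 180 and 167 bases, a motif found in 20.4% of all promoters. Matches to AP-1 (TGANTCA), NF-kB, STAT (TTCNNNGAA), antioxidant response (TGACNNNGC) and MiT/TFE (TCACGTG) motifs, present in 2.41% to 8.7% of all promoters, were not among these letters in any of the 5 genes. The windows of Cd36 and Cd163 held none of the 7 motifs. For Cd36 the window belongs to a start inside the GENCODE vM21 gene model (chr5:17781690-17888801, minus strand). Sequence before the 5′ end of that model was not searched. A match describes the sequence only, and Saa3 and Marco shared none of the motifs searched.

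Msr1, the other class A receptor, was the most abundant receptor of the set and behaved unlike Marco. The empty libraries held 103, 136 and 127 CPM, the SETBP1 libraries 205, 179 and 348 CPM, the NRAS libraries 282, 227 and 209 CPM and the libraries with both 421, 381 and 432 CPM. All libraries with any mutant lay above all empty ones, and all libraries with both lay above the other 9. The SETBP1 and NRAS groups overlapped.

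Msr1 rose with each mutant alone. The log2 fold change against empty was 1.00 (SE 0.202, adjusted p = 0.00822) with SETBP1 and 0.97 (SE 0.203, adjusted p = 0.00218) with NRAS by edgeR's quasi-likelihood test with Benjamini-Hochberg adjustment. NRAS and SETBP1 differed by -0.03 (SE 0.198, edgeR adjusted p = 0.915). SETBP1 replicate 3 was again the highest of its group. Without it the ratio of SETBP1 to empty was 1.58 in place of 2.01, and NRAS exceeded SETBP1 by 0.32 (edgeR adjusted p = 0.0316). With both mutants Msr1 rose by 1.76 (SE 0.205, adjusted p = 1.36e-05) over empty. The step from SETBP1 alone to both was 0.75 (SE 0.198) and passed edgeR's test (adjusted p = 0.00798), whereas the step from NRAS alone to both, 0.78 (SE 0.199), did not (adjusted p = 0.0672), although those groups did not overlap. The change with SETBP1 on the 2 backgrounds differed by -0.22 (95% interval -0.83 to 0.38, edgeR adjusted p = 0.74).

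Cd36 separated all 4 groups. The empty libraries held 7.19, 15.6 and 7.96 CPM, the SETBP1 libraries 30.9, 17.5 and 39.3 CPM, the NRAS libraries 77.6, 58.2 and 76.8 CPM and the libraries with both 159, 159 and 156 CPM. The order empty, SETBP1, NRAS, both held for every library, with the narrowest gap between empty replicate 2 and SETBP1 replicate 2.

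By edgeR's quasi-likelihood test with Benjamini-Hochberg adjustment, Cd36 rose by 1.52 with SETBP1 (SE 0.294, adjusted p = 0.00678), by 2.79 with NRAS (SE 0.289, adjusted p = 7.27e-06) and by 3.95 with both (SE 0.292, adjusted p = 1.72e-07). Without SETBP1 replicate 3 the ratio of SETBP1 to empty was 2.36 in place of 2.85. NRAS alone exceeded SETBP1 alone by 1.27 (SE 0.26, edgeR adjusted p = 0.00169). Adding SETBP1 to NRAS raised it by 1.16 (SE 0.247, edgeR adjusted p = 0.0289), a call that was lost when any of the 6 libraries of these groups was left out, with adjusted p of 0.08 to 0.155, and with the replicate number as a block (adjusted p = 0.0613). Adding NRAS to SETBP1 raised it by 2.43 (SE 0.262, edgeR adjusted p = 8.11e-06). The changes with SETBP1 on the empty and NRAS backgrounds differed by -0.36 (95% interval -1.19 to 0.46, edgeR adjusted p = 0.693), an interval that holds 0 and a change smaller by 1.19 alike.

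Mrc1 was higher in both groups with mutant NRAS. The empty libraries held 37.8, 38.0 and 19.3 CPM and the SETBP1 libraries 43.7, 32.9 and 32.2 CPM, which overlapped. The NRAS libraries held 64.6, 50.5 and 53.5 CPM and the libraries with both 144, 125 and 101 CPM, and these groups lay above all libraries without mutant NRAS.

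Mutant NRAS raised Mrc1 by 0.82 over empty (SE 0.222, adjusted p = 0.0116) and both mutants raised it by 1.95 (SE 0.222, adjusted p = 1.09e-05) in edgeR's quasi-likelihood test with Benjamini-Hochberg adjustment. The first call was narrowly lost without NRAS replicate 1 (adjusted p = 0.0529). SETBP1 alone differed from empty by 0.19 (SE 0.225, edgeR adjusted p = 0.576), and on the NRAS background SETBP1 raised Mrc1 by 1.13 (SE 0.214, edgeR adjusted p = 0.0137, but 0.0603 to 0.0879 without NRAS replicate 2 or 3 or without replicate 1 or 2 of the both group). The difference between these SETBP1 changes was 0.94 (95% interval 0.28 to 1.61), with an unadjusted p of 0.00901 and an edgeR adjusted p of 0.273, so it did not pass over all genes. The both group exceeded SETBP1 alone by 1.76 (SE 0.22, edgeR adjusted p = 2.89e-05). NRAS alone exceeded SETBP1 alone by 0.63 (SE 0.221, edgeR adjusted p = 0.0349), a call that was lost without SETBP1 replicate 2 (0.106), NRAS replicate 1 (0.123) or NRAS replicate 3 (0.0704).

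Cd163 was near the limit of detection throughout. The counts were 11, 8 and 2 in the empty libraries, 22, 17 and 11 in the SETBP1 libraries, 4, 10 and 2 in the NRAS libraries and 10, 22 and 10 in the libraries with both. The group means lay between 0.712 ± 0.572 CPM (SD, n = 3, NRAS) and 2.06 ± 0.689 CPM (SD, n = 3, SETBP1), and no comparison of Cd163 passed edgeR's quasi-likelihood test. The smallest adjusted p was 0.0611 for NRAS against SETBP1 (log2 fold change -1.52, SE 0.612), with a range of 0.0208 to 0.216 over the alternatives. At this depth a difference of the size fitted for SETBP1 against empty, 1.25 (SE 0.587, edgeR adjusted p = 0.154), was not detectable as more than spread.

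Levels of different genes can be compared only per length. Per kilobase of the main transcript, Msr1 led in the empty group at 85.5 CPM per kb, with Saa3 next at 39.7 CPM per kb, and Cd163 was last at 0.189 CPM per kb. In the SETBP1 group Saa3 led at 495 CPM per kb, above Msr1 at 171 CPM per kb. In the NRAS group and with both, Msr1 led at 168 and 289 CPM per kb. Marco reached 8.77 CPM per kb in the SETBP1 group, close to the 9.70 CPM per kb of Cd36 there, and those neighbours changed places when the length of all exons was used. Cd36 stood at 52.4 CPM per kb and Mrc1 at 22.9 CPM per kb with both mutants.

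**Figure D2:**
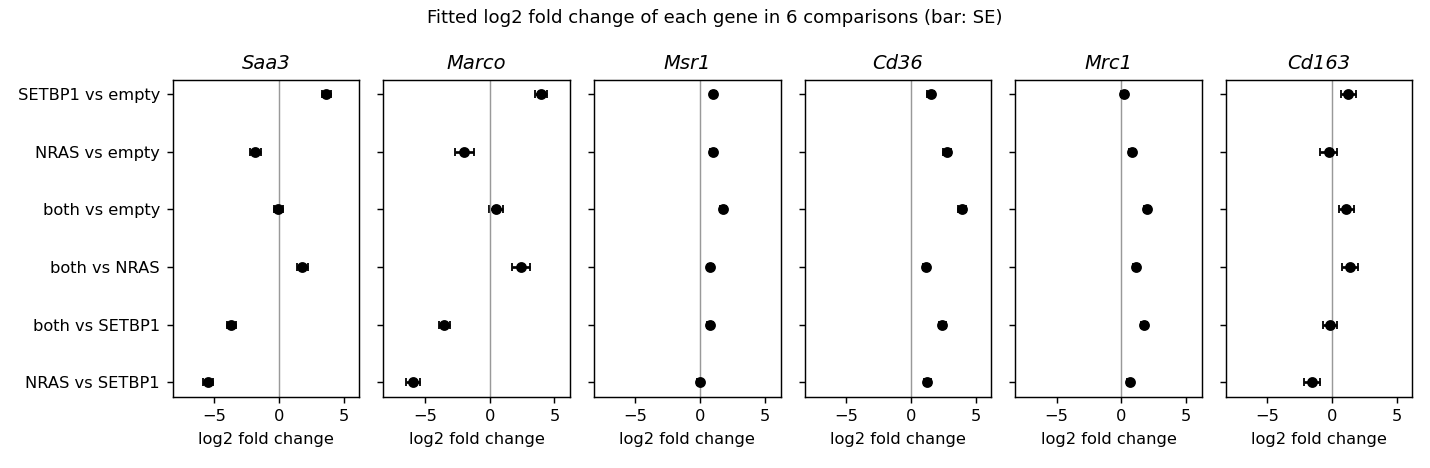
Fitted log2 fold change of each of the 6 genes (1 panel per gene, horizontal axis) in 6 pairwise comparisons of groups (vertical axis), with bars for the SE. Saa3 and Marco lay furthest to the left in NRAS against SETBP1 (-5.47 and -5.92), whereas Cd36 lay to the right of 0 in all 6 comparisons.

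Calls were counted over the 4 receptor genes chosen by family, Msr1, Cd36, Mrc1 and Cd163, since a call of Saa3 or Marco would only restate the values by which they were chosen. In SETBP1 against empty 2 of the 4 passed the threshold, both higher (Msr1 and Cd36), where 14.9% of all tested genes passed and 8.31% were higher. Groups did not overlap for 3 of the 4, beside 33.2% of all genes. With only the SETBP1 and empty libraries in the fit, Msr1 (adjusted p = 0.0818) and Cd36 (adjusted p = 0.0843) missed the threshold in edgeR's quasi-likelihood test and none of the 4 was left.

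In NRAS against empty 3 of the 4 passed (Msr1, Cd36 and Mrc1), all higher, beside 32.5% of all genes passing and 17% higher. The same 3 genes had groups that did not overlap, beside 56.3% of all genes. From empty to both, the same 3 passed, all higher, beside 40.6% of all genes passing and 20.8% higher, and groups did not overlap for 4 of 4 genes beside 61.2%. These contrasts share the empty libraries.

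Between both and NRAS, where Marco was tested too, 2 of 5 genes passed (Cd36 and Mrc1), both higher, beside 1.91% of all genes passing and 0.528% higher. Groups did not overlap for 4 of the 5, beside 25.2% of all genes. The count moved between 0 and 4 as single libraries were left out. It was 0 without NRAS replicate 2 or 3 or without replicate 1 or 2 of the both group, and 4 without SETBP1 replicate 3, which is in neither group but shares the estimate of spread.

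From SETBP1 to both, 3 of the 4 passed (Msr1, Cd36 and Mrc1), all higher, beside 42.4% of all genes passing and 20.9% higher, and groups did not overlap for these 3, beside 48.8%. From SETBP1 to NRAS 2 of the 4 passed (Cd36 and Mrc1), both higher, beside 40.9% passing and 20.8% higher, with groups that did not overlap for these genes, beside 48.4%. That count lay between 1 and 4 with single libraries left out, 1 without SETBP1 replicate 2, NRAS replicate 1 or NRAS replicate 3 and 4 without SETBP1 replicate 3, with Msr1 then higher and Cd163 lower. None of the 4 passed for the difference between the SETBP1 changes on the empty and NRAS backgrounds, where edgeR called 5 of all genes (0.0455%) and 1420 had an unadjusted p under 0.05.

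**Figure D3:**
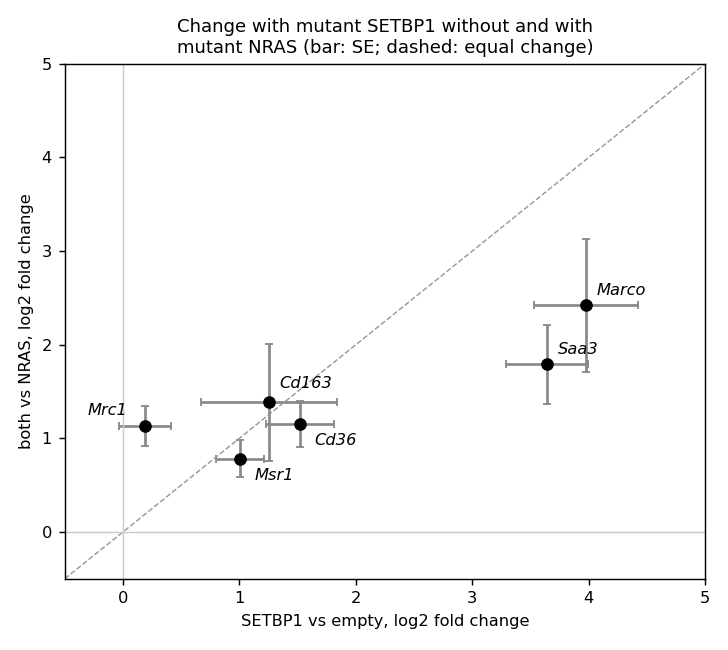
Log2 fold change with mutant SETBP1 without mutant NRAS (SETBP1 against empty, horizontal axis) and with it (both against NRAS, vertical axis) for the 6 genes, with bars for the SE and a dashed line where both changes are equal. Saa3 (3.64 and 1.79) and Marco (3.97 and 2.42) lay below the line and Mrc1 (0.19 and 1.13) above it, and the distance did not pass the test over all genes for any of the 4 genes with a test.

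Serum amyloid A is one of a larger group of acute-phase proteins, of which 24 were listed and 9 had enough counts to be tested. In SETBP1 against empty 3 rose and 2 fell. Of all genes 14.9% passed there. Cfb, complement factor B, rose by 2.50 (SE 0.299, edgeR adjusted p = 0.000714), while Lcn2, the iron-binding neutrophil protein lipocalin 2, fell by 0.75 (log2 fold change -0.75, SE 0.114, edgeR adjusted p = 0.00236). In NRAS against empty, where 32.5% of all genes passed, 1 rose and 8 fell, with a median log2 change of -1.24 beside -0.01 over all genes. Hp, which encodes haptoglobin, changed by -1.91 (SE 0.154, edgeR adjusted p = 6.73e-07), Lbp, the lipopolysaccharide-binding protein, by -1.11 and complement C3 by -1.24. Between both and NRAS, where 1.91% of all genes passed, none rose and 4 fell, with Lcn2 at -1.14 (SE 0.116, edgeR adjusted p = 0.000138).

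Of 11 reported receptors of serum amyloid A, 9 were tested. Cd14, the lipopolysaccharide co-receptor, rose by 1.56 with SETBP1 (SE 0.255, edgeR adjusted p = 0.00306, or 0.0532 with only those groups in the fit), by 3.44 with NRAS (SE 0.263, edgeR adjusted p = 4.23e-07) and by 3.41 with both. Tlr2, a receptor for bacterial lipopeptides, rose by 0.65 with SETBP1 (edgeR adjusted p = 0.0245) and changed by -1.63 with NRAS (SE 0.182, edgeR adjusted p = 1.41e-05). In both against SETBP1, 2 of the 9 were higher and 5 lower, beside 42.4% of all genes passing. Tlr2 stood at -2.23 and Fpr2, a formyl peptide receptor, at -1.26. None of the 9 passed between both and NRAS, where 1.91% of all genes did.

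All 23 listed inducers and transcription factors of Saa3 were tested. With SETBP1 alone 5 rose and 1 fell, beside 14.9% of all genes passing, and those that rose included the cytokine genes Il1b by 2.05 (SE 0.328, edgeR adjusted p = 0.00279), Il1a by 1.75 and Tnf by 1.14. Tnf rose further with NRAS alone, by 2.53 over empty (SE 0.177, edgeR adjusted p = 1.79e-07), and by 2.91 with both. Il1b was also higher than empty in these groups, by 1.71 with NRAS (SE 0.331, edgeR adjusted p = 0.00134) and by 1.32 with both (SE 0.336, edgeR adjusted p = 0.00638). By number, 4 rose and 3 fell with NRAS and 5 rose and 9 fell with both, beside 32.5% and 40.6% of all genes passing. The part of these genes in the level of Saa3 was not tested. Cebpa, which encodes a C/EBP factor of myeloid cells, changed by -0.63 with NRAS (SE 0.108, edgeR adjusted p = 0.000533) and by -1.08 with both (SE 0.11, edgeR adjusted p = 3.98e-06). From NRAS to both 1 rose and 1 fell, beside 1.91% of all genes passing. Il1a was the gene that rose, by 1.59 (SE 0.337, edgeR adjusted p = 0.028), a call lost in 6 alternatives, with adjusted p from 0.0844 to 0.137.

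The other scavenger receptors gave counts in both directions. Of 29 listed, 15 were tested, and with SETBP1 4 rose and 2 fell, beside 14.9% of all genes passing. Cxcl16, a transmembrane chemokine that binds oxidised lipoprotein, rose by 1.77 (SE 0.208, edgeR adjusted p = 0.000709) and Stab1, the endocytic receptor stabilin-1, by 0.90 (SE 0.135, edgeR adjusted p = 0.00233). With NRAS 3 rose and 6 fell, beside 32.5% of all genes passing, among them the phagocytic kinase receptor Axl at -0.82 and Scarf1, a class F receptor, at -1.21. Stab1 was the one gene past the threshold in both against NRAS, higher by 0.76 (SE 0.133, edgeR adjusted p = 0.00813, or 0.0531 without replicate 2 of the both group). Cxcl16 was lower with both than with SETBP1 alone, at -2.05 (SE 0.213, edgeR adjusted p = 5.96e-06).

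**Figure D4:**
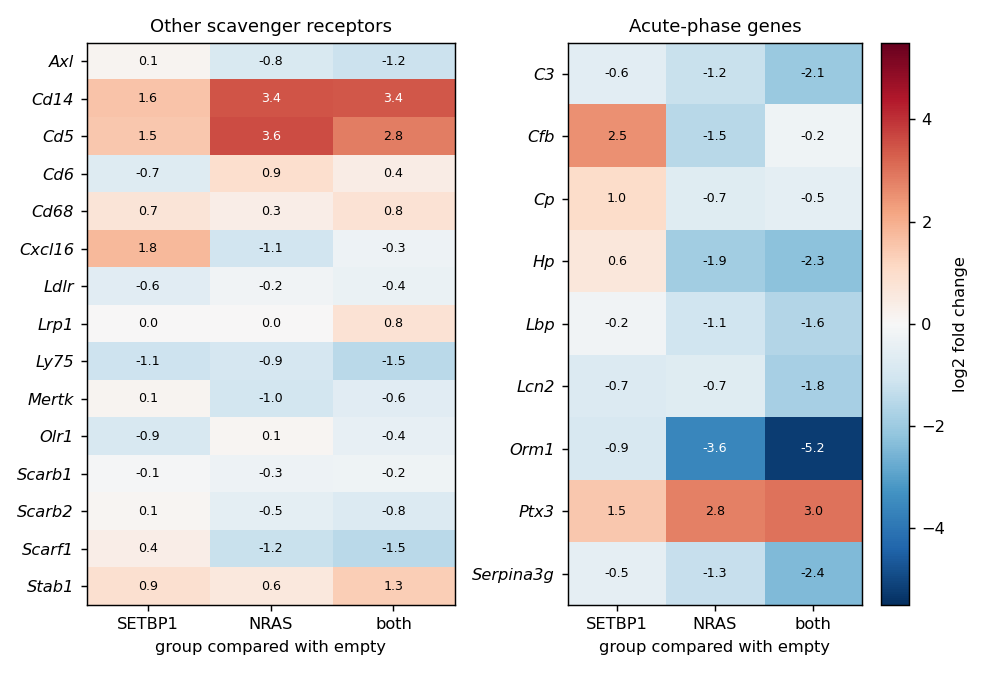
Fitted log2 fold changes against the empty group (colour scale in log2 units, red higher, blue lower) of the tested other scavenger receptors (left) and acute-phase genes (right), for the SETBP1, NRAS and both groups (columns). Cd14 was higher in all 3 groups (1.56, 3.44 and 3.41), and Hp was higher with SETBP1 (0.62) and lower with NRAS and with both (-1.91 and -2.28).

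Of 22 transcription factors reported for Marco, Msr1 and Cd36, 21 were tested. With SETBP1 alone 5 rose and 1 fell, beside 14.9% of all genes passing, led by the AP-1 subunit Junb at 1.02 (SE 0.107, edgeR adjusted p = 0.000344). With NRAS 3 rose and 3 fell, a share near the 32.5% of all genes passing, with the AP-1 subunit Jun up by 1.68 (SE 0.116, edgeR adjusted p = 1.64e-07) and the Kruppel-like factor Klf4 at -2.27 (SE 0.349, edgeR adjusted p = 0.000226). Irf8, a factor of monocytes and dendritic cells, rose by 0.81 with SETBP1 and changed by -0.69 with NRAS. None of the 21 passed in both against NRAS, where 1.91% of all genes did.

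Around Cd36 and Msr1, 23 of 24 listed genes of lipid uptake and storage were tested. Lpl, which encodes lipoprotein lipase, rose by 2.94 with NRAS (SE 0.164, edgeR adjusted p = 1.99e-08) and by 2.59 with both, as Cd36 did, and Fyn, a kinase downstream of Cd36, by 1.42 and 1.82. Apoe, the lipoprotein component secreted by macrophages, was higher by 1.56 with SETBP1 (SE 0.291, edgeR adjusted p = 0.00579) and lower with NRAS at -4.79 (SE 0.376, edgeR adjusted p = 5.33e-07). By number, 7 rose and 4 fell with SETBP1, 7 and 7 with NRAS, and 8 and 7 with both, beside 14.9%, 32.5% and 40.6% of all genes passing. From NRAS to both 1 of the 23 passed, lower, beside 1.91% of all genes.

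Of 25 listed genes that accompany Mrc1 and Cd163 in alternative activation, 19 were tested, and they did not move as a block. With NRAS 7 rose and 4 fell, beside 32.5% of all genes passing. Arg1, arginase 1, rose by 2.08 (SE 0.221, edgeR adjusted p = 9.76e-06) and Mgl2, a galactose-type lectin, by 1.38 (SE 0.12, edgeR adjusted p = 1.48e-06), while Chil3, a chitinase-like protein, changed by -1.80 (SE 0.139, edgeR adjusted p = 4.79e-07) and the interleukin 4 receptor chain Il4ra by -0.93 (SE 0.08, edgeR adjusted p = 1.24e-06). In both against NRAS 1 of the 19 passed, beside 1.91% of all genes. It was Chil3, lower by 0.81 (log2 fold change -0.81, SE 0.136, edgeR adjusted p = 0.00643).

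Of 16 listed genes of haem and iron handling, 14 were tested. With SETBP1 8 rose and 2 fell, beside 14.9% of all genes passing, 1633 genes in number and 110 with only these groups in the fit. Slc11a1, the phagosomal metal transporter, rose by 1.84 (SE 0.208, edgeR adjusted p = 0.000532), Hmox1, haem oxygenase 1, by 1.51 (SE 0.205, edgeR adjusted p = 0.00128) and Fth1, ferritin heavy chain, by 1.51 (SE 0.182, edgeR adjusted p = 0.000714). Hmox1 rose with NRAS too, by 2.40 (SE 0.209, edgeR adjusted p = 1.45e-06), and by 2.92 with both. In both against NRAS the one gene past the threshold was Slc11a1, higher by 1.26 (SE 0.218, edgeR adjusted p = 0.00791, or 0.0503 and 0.0553 without NRAS replicate 2 or 3).

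Macrophage markers differed between the groups. Of 13 markers listed, 9 were tested, and with SETBP1 6 rose and none fell, beside 14.9% of all genes passing and 8.31% higher, among them C1qa, C1qb and C1qc, the chains of complement C1q, by 1.74, 1.52 and 1.57. With NRAS Siglec1, the sialoadhesin of macrophages, rose by 0.88 and 5 fell, beside 32.5% of all genes passing, including Adgre1, the F4/80 antigen, at -1.14 and C1qa at -1.11. From NRAS to both 4 rose and none fell, beside 1.91% of all genes passing, with C1qb higher by 1.24 (SE 0.274) and Adgre1 by 0.77 (SE 0.182). All 4 lay near the threshold, with edgeR adjusted p of 0.0311 (C1qa), 0.0344 (C1qb), 0.0364 (C1qc) and 0.0465 (Adgre1). The 13 markers summed to 961 to 1091 CPM in the empty libraries, 1466 to 2668 CPM (median 1566) with SETBP1, 739 to 908 CPM with NRAS and 1208 to 1333 CPM with both. These sums were highest with SETBP1 and lowest with NRAS. Vsig4 and Timd4, markers of resident tissue macrophages, had 0 counts in every library. The part of macrophage abundance in the results was not tested.

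Markers of other blood cells also differed between the groups. The 7 monocyte markers summed to 4455 to 4908 CPM in the empty libraries, 4467 to 5359 CPM with SETBP1, 3291 to 3640 CPM with NRAS and 2706 to 3045 CPM with both. The 9 neutrophil markers summed to 10390 to 11750, 4632 to 6766, 5373 to 6955 and 1778 to 2221 CPM in the same order of groups, and the 4 progenitor markers to 14720 to 16310, 8795 to 11450, 6137 to 6510 and 3075 to 3583 CPM. Members of these sums did not all move alike. With NRAS 2 neutrophil markers were higher and 4 lower past the threshold, beside 32.5% of all genes passing. Of the progenitor markers, 1 was higher and 2 lower with NRAS, and likewise with both, where 40.6% of all genes passed. The higher one was Cd34, by 1.48 with both (SE 0.186, edgeR adjusted p = 2.56e-05). Mast cell and basophil markers summed to 2733 to 2842 CPM in the empty libraries and to 157 to 276 CPM with both. There 6 of 7 tested were lower past the threshold, beside 40.6% of all genes passing. Megakaryocyte markers, of interest because platelets and their precursors carry Cd36, summed to 204 to 241, 284 to 617, 139 to 198 and 240.5 to 268 CPM. This sum joins markers that went opposite ways. In both against empty 3 of the 5 were lower past the threshold, Itga2b at -1.82, Gp1bb at -3.15 and Gp9 at -3.16. Pf4 was the 1 marker higher, by 1.07, beside 40.6% of all genes passing. The part of these cells in the results was not tested.

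Markers of other cells known to make some of the 6 genes were low but not all at 0. The 5 adipocyte markers summed to 1.08 to 6.22 CPM in the empty libraries, 9.41 to 21.3 CPM with SETBP1, 7.22 to 10.3 CPM with NRAS and 18.7 to 20.1 CPM with both, which is nearly all Fabp4, a fatty acid binding protein that macrophages also make. Fabp4 rose in all 3 groups, by 2.29, 1.36 and 2.54, while Adipoq, which defines adipocytes, was at 0 in all libraries with a mutant. The 8 stromal markers summed to 2.32 to 3.91, 1.06 to 2.61, 5.82 to 7.99 and 3.63 to 5.63 CPM in the same order of groups. Pdgfrb, a receptor of pericytes and fibroblasts, rose by 1.96 with NRAS (SE 0.543, edgeR adjusted p = 0.0133), and Col3a1, Pdgfra, Cxcl12 and Dcn had 0 counts in all libraries. Among endothelial markers, which summed to 5.73 CPM at most, Kdr had a mean of 0.214 CPM in the empty group, 2.30 CPM with NRAS and 5.13 CPM with both, and passed the threshold in the latter groups. T cell markers summed to 0.553 CPM at most, and the 4 haemoglobin genes had 0 counts in all libraries. The part of these cells in the results was not tested.

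Genes with the pattern most like each member were taken as the 5 with the highest Pearson r of log2 CPM over the 12 libraries, among 10679 tested genes with a mean count of at least 10. For Saa3 these were Cfb (r = 0.989), Cxcl16 (0.985), Ly6i (0.977), Plscr3 (0.976) and Serpinf1 (0.971). Cfb had group means of 16.3, 92.6, 5.68 and 14.0 CPM in the empty, SETBP1, NRAS and both groups, and Ly6i 17.1, 89.0, 6.04 and 11.3 CPM, the same order of groups at both ends as Saa3. For Marco they were the transcription factor gene Maf (0.961), Cfb (0.96), Saa3 (0.958), Cxcl16 (0.952) and Zfp706 (0.949). Cfb and Cxcl16 were thus named for both genes.

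For Cd36 the most alike genes were C3ar1 (0.989), Arg1 (0.989), Mmp12 (0.985), Mrps6 (0.984) and Sdc4 (0.983). Mmp12, the macrophage elastase, had means of 56.6, 169, 607 and 1210 CPM and Arg1 369, 724, 1557 and 2602 CPM, the order of groups that Cd36 had. For Msr1 they were Hpgds (0.984), Rce1 (0.983), Mcoln2 (0.98), Imp4 (0.978) and Nop16 (0.977), and for Mrc1 Snx5 (0.968), Mfhas1 (0.959), Mpp6 (0.952), Tmem33 (0.948) and Cndp2 (0.944). Cd163, with its few counts, reached lower values, 0.904 for Pld2, 0.881 for Nudcd2 and 0.842 to 0.86 for Gpatch3, Ppargc1b and Hoxa7. Among the 6 genes themselves, Msr1 and Cd36 correlated at 0.921, Cd36 and Mrc1 at 0.886 and Msr1 and Mrc1 at 0.771, and Msr1 correlated with Saa3 at 0.0451 and with Marco at 0.1. All these values are descriptions over libraries that share 4 groups.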

How the data were processed

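Per the labels' protocols, RNA was purified on RNeasy micro columns and converted with a SMART-Seq ultra-low input kit. The submitters' processing notes name STAR, DESeq2 and mm10, without versions. The authors deposited whole-number counts per gene symbol for all 12 libraries, in a single table. Whether counting used strand, and how reads that match several genes were treated, is not given in the sources used here.

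The genes and the gene lists were chosen with earlier results of these data known, and no list is independent support. Samples were grouped by their labelled transduction. Counts were fitted as 4 group means over all 12 libraries with edgeR 4.0.16 (R 4.3.3), with TMM scaling, a filter of 10 counts (15 in total), the quasi-likelihood test and Benjamini-Hochberg adjustment over 10993 genes. Of each list, up to 4 genes past the threshold with the smallest adjusted p in a comparison could be named. Il1b, named in SETBP1 against empty, is given in NRAS and both against empty too. Macrophage, progenitor and megakaryocyte markers named are members of the marker lists. The interval of the Marco count ratio is exact at 95% and covers counting error only. Similarity used log2 CPM with a prior count of 2. GENCODE vM21 gave coordinates and transcript lengths.

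Alternatives were DESeq2 1.42.0, limma 3.58.1 with voom, other scalings, other filters, only the groups compared, the replicate number as a block and each library left out. On simulated data for SETBP1 against empty over 10865 genes, the main test recovered 78% of genes changed by a factor of 2 and 94% of those changed by 4, with 3.91% false calls. For the difference between backgrounds it recovered 61% and 86%, with 6.96% false calls. The simulated data held no outlying library such as SETBP1 replicate 3.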

Additional observations from a re-analysis of the deposited data

How the results depend on the processing

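Of the values of the 6 genes that have a test, under the 8 alternatives and with each of the 12 libraries left out, 525 kept direction and call, 18 lost the call, 11 gained it and 18 reversed. Of the values of Saa3 and Marco given without a test, 250 moved by less than the spread between replicates, sign changes of values near 0 included, and 7 moved by more. Of those for the other genes named from lists, 3091 kept direction and call and 87 lost the call. Counted over the genes with a test, 2 of 4 passed in SETBP1 against empty and 2 of 5 in both against NRAS. Over the 8 alternatives the first count lay between 0 and 2 and the second between 1 and 4. With the Wald test of DESeq2, Msr1 had an adjusted p of 0.00646 in both against NRAS. With 1 library left out, the count was 2 to 2 in SETBP1 against empty and 2 to 3 in NRAS against empty. It was 3 to 3 in both against empty, 0 to 4 in both against NRAS and 3 to 3 in both against SETBP1. For NRAS against SETBP1 it was 1 to 4, and for the difference between backgrounds 0 to 0. Reversals were among small values. Msr1 in NRAS against SETBP1 was 0.0146 with limma-voom, 0.004215 with the replicate block and -0.23 to 0.32 (0.32 without SETBP1 replicate 3, adjusted p = 0.0316 by edgeR) with 1 library left out. With 1 library left out, Mrc1 in SETBP1 against empty was -0.059 to 0.34, Cd163 in NRAS against empty -1.10 to 0.13, Cd163 in both against SETBP1 -0.57 to 0.080, and the difference between backgrounds was -0.41 to 0.12 for Msr1 and -0.31 to 0.96 for Cd163. Scaling by library size alone moved the median of all genes by -0.132 in both against empty, and the split of higher to lower calls there from 2282 and 2180 to 1656 and 2908. In NRAS against empty it moved from 1868 and 1708 to 1379 and 2265, and in both against SETBP1 from 2293 and 2368 to 1720 and 2888. Over all genes, 110 in place of 1633 passed in SETBP1 against empty with only the groups compared, and in both against NRAS 379 passed with DESeq2, 883 with only the groups compared, 836 without SETBP1 replicate 3 and 93 to 139 without 1 of the 6 libraries compared, in place of 210. Of 18 same-numbered pairs of libraries, 1 deviated together above a correlation of 0.1, beside 3 of 36 others. This shows no pairing by replicate number but cannot exclude it, and the labels state none. With the replicate block, Cd36 no longer passed from NRAS to both. Depth limits Marco outside the SETBP1 group and Cd163 everywhere, with 22 counts or fewer per library.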
